A study of Homo sapiens with 8 samples.

Results

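The genes described here encode the receptors for TRAIL and the receptor FAS, together with the TRAIL ligand and the proteins that first assemble on the receptors inside the cell. They are 9 of the 59050 gene symbols counted in each library: TNFSF10, TNFRSF10A, TNFRSF10B, TNFRSF10C, TNFRSF10D, FAS, FADD, CASP8 and CFLAR, taken by their symbols. RNA was sequenced from xenograft tumours of the human lung cancer line H2122. The 4 control tumours came from parental cells, labelled WT, and the other 4 from cells with a knockout of SMARCA4. This gene encodes a motor subunit of SWI/SNF complexes, which slide or evict nucleosomes. All 8 tumours were vehicle-treated. The host strain, and whether the knockout cells were a clone or a pool, are not given in the sources used here. The labels do not say that the tumours of a group came from separate animals, so p-values measure the spread between these samples, part of which may be technical.

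TRAIL, the product of TNFSF10, and FAS ligand are trimeric proteins of the tumour necrosis factor family that immune cells use to kill target cells. When they bind the death receptors TNFRSF10A (DR4), TNFRSF10B (DR5) or FAS, the receptors' death domains recruit the adaptor FADD, which in turn recruits procaspase-8 (CASP8). The protein c-FLIP, encoded by CFLAR, joins the same complex and at high levels holds back caspase-8 activation, while TNFRSF10C and TNFRSF10D bind TRAIL but lack a working death domain and act as decoys.

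The libraries held 19785922 to 23191698 gene counts in parental and 20662882 to 21981123 in knockout tumours. Levels are given as CPM, the count scaled by the TMM-adjusted library size. SMARCA4 itself lay at 198 to 235 CPM in parental and 22.3 to 31.1 CPM in knockout tumours, so every library stood on the side of its label. All 8 genes of an epithelial carcinoma list (EPCAM, CDH1, 4 keratins and 2 claudins) were expressed, summing to 6479 to 7568 CPM in parental and 5042 to 6676 CPM in knockout tumours. Of the 8, 4 were called lower (50%, against 14.1% of all genes tested), among them KRT19 (log2 fold change -1.01), CLDN4 (-0.99) and KRT7 (-0.71). The part of this in the values below was not tested. The sum of 17 leukocyte markers, leaving out S100A8 after its values were seen, ran from 9.40 to 96.2 CPM in parental and from 16.8 to 39.4 CPM in knockout tumours, with parental replicates 2 and 3 highest. With S100A8, which epithelial cells can also make and which carried most of the sum in every tumour but parental replicate 2, the 18 markers summed to 64.0 to 182 CPM in parental and 264 to 485 CPM in knockout tumours, and none of them was at 0 in every library. In such bulk samples fewer cells of a type and less RNA per cell cannot be told apart. Any removal of mouse reads is not given, so leukocyte marker counts may hold host reads that resemble human transcripts. Which cells these counts came from was not tested.

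TNFRSF10A fell and CFLAR rose in knockout tumours, and the other 7 genes were not called at an adjusted p under 0.05 (edgeR quasi-likelihood test). The members called thus made up 22.2%, against 27.0% of the 16219 genes tested. By direction, 1 member was lower, against 14.1% of all genes, and 1 was higher, against 13.0%. All 9 members passed the filter on low counts, and their median log2 fold change was 0.03, close to the 0.00345 of all genes. The groups did not overlap for TNFRSF10A, FADD and CASP8, that is for 3 of 9 members, against 29.3% of all genes. These shares are near the background, so the changes below describe single genes and not the set.

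**Figure D1:**
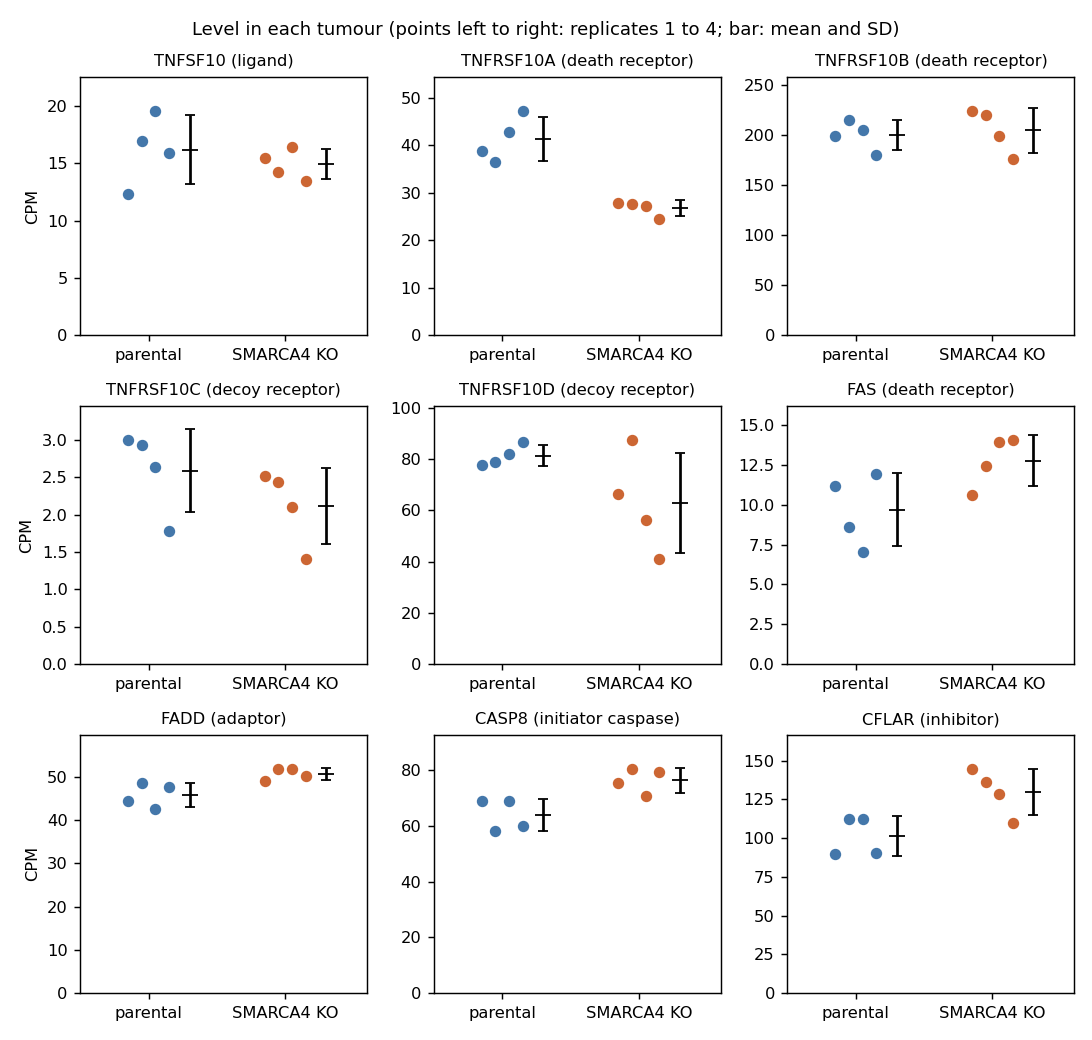
CPM (vertical axes, each starting at 0) of the 9 genes in the 4 parental and 4 SMARCA4 knockout tumours, with replicates 1 to 4 from left to right in each group and a bar for the mean and SD. TNFRSF10A lies at 36.6 to 47.3 CPM in parental and 24.5 to 27.9 CPM in knockout tumours, while TNFRSF10B overlaps fully between the groups.

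The promoters of the ligand gene and of CASP8 are shown because they hold the core of an interferon-stimulated response element, and the series concerns STING signalling, which drives interferon. Promoter windows from RefSeq (GRCh38.p14), spanning 250 bases before to 50 after each start site, were matched by symbol for TNFSF10, FAS, FADD, CASP8 and CFLAR. Windows of the TNFRSF10 genes were left out of this search, so nothing is said here about their promoters. All annotated start sites of these genes were searched on both strands for GAAA and GAAA around any 2 bases (interferon-stimulated response element core), TTCNNNGAA (STAT binding, or GAS, element), TGANTCA (AP-1) and GGGA and TTTCC around any 1 base (a form of the NF-kB element). The printed stretches stop where an annotated exon begins, run 5′ to 3′ on the gene's strand, and carry each match in capitals. The TNFSF10 stretch is chr3:172523508-172523680 on the minus strand and the CASP8 stretch, at the first of its 3 start sites, is chr2:201233213-201233442 on the plus strand.
TNFSF10: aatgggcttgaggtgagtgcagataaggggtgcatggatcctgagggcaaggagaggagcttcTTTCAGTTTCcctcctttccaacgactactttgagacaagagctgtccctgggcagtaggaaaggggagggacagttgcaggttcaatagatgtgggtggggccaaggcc
CASP8: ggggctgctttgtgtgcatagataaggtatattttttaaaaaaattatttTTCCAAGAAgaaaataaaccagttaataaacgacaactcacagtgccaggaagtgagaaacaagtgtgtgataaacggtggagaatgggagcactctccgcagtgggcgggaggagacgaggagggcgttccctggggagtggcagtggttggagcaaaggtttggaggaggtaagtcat
In the TNFSF10 stretch the capitals mark the response element core, read on the opposite strand, which starts at position -187 from the start site. In the CASP8 stretch they mark a GAS match at position -200. A further response element core starts at position -3 of CASP8 and reaches past the start, outside the printed stretch. Among 35116 promoter windows 3.57% hold the response element core, 7.66% the GAS letters, 7.71% the AP-1 letters and 0.558% the NF-kB letters. These shares are per window, and the genes differ in windows: 4 for CFLAR, 3 each for CASP8 and FAS, and 1 each for FADD and TNFSF10. AP-1 matches were found in at least 1 window of FAS, FADD, CFLAR and CASP8, the FADD match at position 22, past the start. None of the windows searched held the NF-kB letters, which is uninformative for so few windows given the low share over all windows. A match is a description of these letters only.

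The ligand gene TNFSF10 (ENSG00000121858, chromosome 3, 172505508 to 172523507, minus strand, GENCODE 29 on GRCh38) was expressed at a low level in every tumour. It lay at 12.3, 17.0, 19.6 and 15.9 CPM in parental replicates 1 to 4 and at 15.5, 14.2, 16.5 and 13.5 CPM in knockout replicates 1 to 4. The knockout values fell inside the parental range, whose 2 highest values belong to the tumours with the highest leukocyte marker sums (96.2 and 80.3 CPM in parental replicates 2 and 3); the part of leukocyte RNA in this was not tested. The log2 fold change was -0.12 (95% interval -0.43 to 0.19; edgeR adjusted p = 0.573). FASLG, the FAS ligand gene, was too low for the test, with 2, 27, 9 and 4 counts in the parental and 13, 8, 7 and 6 counts in the knockout libraries. Its highest counts in parental tumours were likewise in replicates 2 and 3. Among knockout tumours the leukocyte marker sum was highest in replicate 2 (39.4 CPM). In that group FASLG was highest in replicate 1 and TNFSF10 in replicate 3.

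Of the TRAIL death receptors, TNFRSF10A (ENSG00000104689, chromosome 8, 23190452 to 23225126, minus strand) was the member with the clearest change. It lay at 38.8, 36.6, 42.7 and 47.3 CPM in parental and at 27.9, 27.6, 27.2 and 24.5 CPM in knockout tumours. Every knockout tumour was below every parental tumour, and the knockout values lay closer together. From a mean of 41.4 ± 4.71 to 26.8 ± 1.6 CPM (SD, n = 4 each), it fell by 35.2%, with a log2 fold change of -0.63 (edgeR adjusted p = 0.000842, SE 0.101). The call held in all 17 alternative analyses, with log2 fold changes from -0.68 to -0.56.

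TNFRSF10B (ENSG00000120889, chromosome 8, 23020133 to 23069179, minus strand), the other TRAIL receptor with a death domain, was the most abundant member and gave no call. It lay at 199.8, 215.8, 205.8 and 180.7 CPM in parental and at 225, 220.1, 199.0 and 176.1 CPM in knockout tumours, and the ranges overlapped almost entirely. Its log2 fold change was 0.03 with a 95% interval of -0.18 to 0.25 (edgeR adjusted p = 0.847), an interval that does not reach the change of TNFRSF10A. The ratio of TNFRSF10A to TNFRSF10B CPM was 0.170 to 0.262 in parental and 0.124 to 0.139 in knockout tumours, with no overlap between the groups.

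The decoy receptor genes were not called. TNFRSF10D (ENSG00000173530, chromosome 8, 23135588 to 23164030, minus strand) lay at 77.8, 78.9, 81.9 and 86.9 CPM in parental and at 66.5, 87.6, 56.3 and 41.0 CPM in knockout tumours. Knockout replicate 2 was above every parental tumour, and the other knockout tumours were below all of them. The log2 fold change was -0.37 (95% interval -0.77 to 0.03; edgeR adjusted p = 0.157), and without knockout replicate 2 it was -0.57, a call (adjusted p = 0.0197). Without knockout replicate 4 it was -0.21 (adjusted p = 0.299). TNFRSF10C (ENSG00000173535, chromosome 8, 23102590 to 23117437, plus strand), whose product is held to the membrane by a lipid anchor, was the lowest member. It lay at 3.0, 2.93, 2.64 and 1.79 CPM in parental and at 2.52, 2.44, 2.1 and 1.4 CPM in knockout tumours, and the ranges overlapped. Its log2 fold change was -0.29 with a wide interval of -0.83 to 0.25 (adjusted p = 0.429), from 30 to 60 counts per library. Leaving out parental replicate 4 gave -0.44 and leaving out knockout replicate 4 gave -0.13, neither of them a call.

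**Figure D2:**
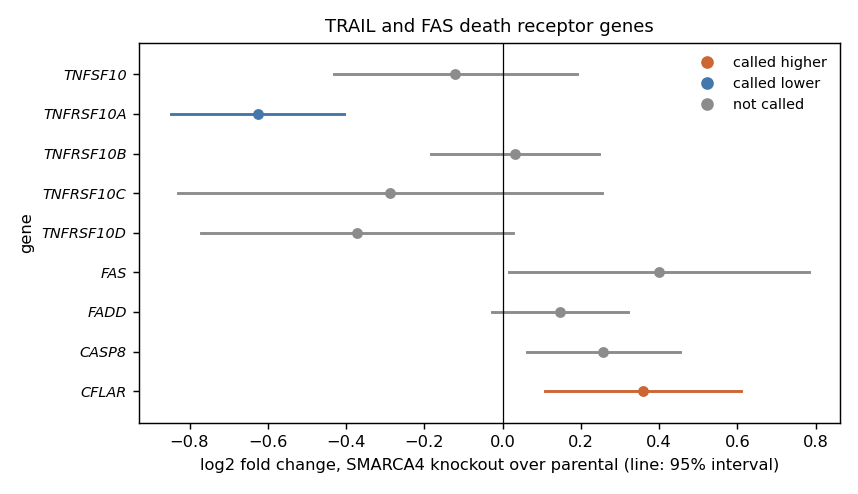
Log2 fold change of each gene, SMARCA4 knockout over parental (horizontal axis; points are edgeR estimates, lines their 95% intervals, 4 tumours per group). TNFRSF10A at -0.63 was called lower and CFLAR at 0.36 higher, and the intervals of FAS and CASP8 also lie above 0 although neither passed the adjusted threshold.

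Levels of different genes were compared per kilobase of annotated exon (CPM per kb). On this scale TNFRSF10B was highest in parental tumours (38.9 CPM per kb), followed by FADD (24.9), TNFRSF10D (23.0), TNFRSF10A (14.0), CASP8 (8.83), TNFSF10 (4.67), CFLAR (4.49), FAS (2.28) and TNFRSF10C (1.39). The ranges over parental tumours overlapped for the neighbours FADD and TNFRSF10D and for TNFSF10 and CFLAR, and were apart for the other neighbours in this order. In knockout tumours the ranges of all neighbours in the order were apart, and CASP8 (10.6) stood above TNFRSF10A (9.09). By coding length CASP8 stood above TNFRSF10A already in parental tumours (35.8 against 29.5 CPM per kb of coding sequence), so that change of order depends on the length used. The place of CFLAR also does, because its annotated exons span 22529 bases against 2042 coding bases: it ranked 7 of 9 in parental tumours by exon length and 4 by coding length.

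Within the TNFRSF10 group the make-up of the transcript pool shifted toward TNFRSF10B. Of the summed CPM per kb of the 4 genes, TNFRSF10B made up 45.7% to 53.6% in parental and 54.6% to 62.3% in knockout tumours, and TNFRSF10A made up 15.9% to 20.9% and 12.0% to 15.1%. Neither pair of ranges overlapped. The decoys TNFRSF10C and TNFRSF10D together made up 30.6% to 33.3% in parental and 22.5% to 33.4% in knockout tumours, and these ranges overlapped through knockout replicate 2. Shares within a pool are tied to each other, so a higher share of TNFRSF10B does not mean a higher level, which was not called.

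**Figure D3:**
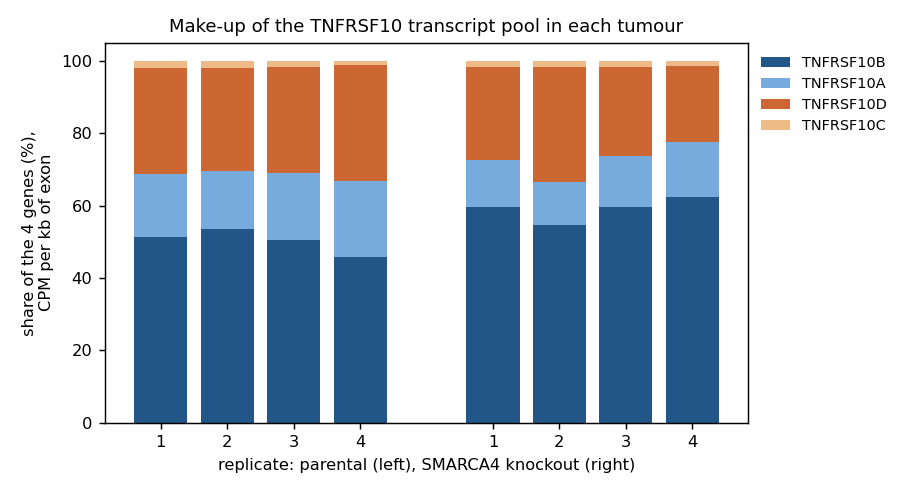
Share of each TNFRSF10 gene (vertical axis, %, from CPM per kb of exon) in the sum of the 4 genes, in the 4 parental tumours (left) and 4 knockout tumours (right). TNFRSF10B takes 54.6% to 62.3% in knockout and 45.7% to 53.6% in parental tumours.

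The 4 TNFRSF10 genes lie side by side within 205 kb of chromosome 8, in a stretch of the short arm where many genes were lower in knockout tumours. Along the chromosome their log2 fold changes ran 0.03 (TNFRSF10B), -0.29 (TNFRSF10C), -0.37 (TNFRSF10D) and -0.63 (TNFRSF10A), although the intervals of neighbouring members in this order overlap. Among the 10 tested genes nearest on each side, 13 of 20 had a log2 fold change below 0, and the median was -0.42, against 0.00345 over all genes. Of these neighbours 10 were called lower and 2 higher, where 14.1% and 13.0% of all genes were. On the side of TNFRSF10B the nearest were RHOBTB2 (-1.15, adjusted p = 1.95e-05), the non-coding AC107959.1 (0.40, 0.273) and EGR3 (1.22, 0.00781). On the side of TNFRSF10A they were CHMP7 (-0.63, 0.000196), R3HCC1 (-0.67, 0.000153) and LOXL2 (0.21, 0.470). TNFRSF10A thus had the value of its nearest called neighbours, and 8 of the 20 neighbours had a more negative one. TNFRSF10B lies next to RHOBTB2, and 6 of the 20 neighbours had a higher log2 fold change than it.

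Set against the mean of those 20 neighbours in each tumour, TNFRSF10A stood lower and TNFRSF10B higher in knockout than in parental tumours. On the log2(CPM + 1) scale, TNFRSF10A stood 0.47 to 0.91 above that mean in parental and 0.38 to 0.42 in knockout tumours. TNFRSF10B stood 2.82 to 2.998 above it in parental and 3.20 to 3.35 in knockout tumours, while the mean itself went from 4.75 ± 0.0620 to 4.397 ± 0.0891 (SD, n = 4 each). The standing of TNFRSF10B changed by 0.378 while the mean changed by -0.350, and the level of TNFRSF10B itself was not called. The groups did not overlap for TNFRSF10A or TNFRSF10B on this measure, and they overlapped for TNFRSF10C and TNFRSF10D. What sets these differences was not tested.

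**Figure D4:**
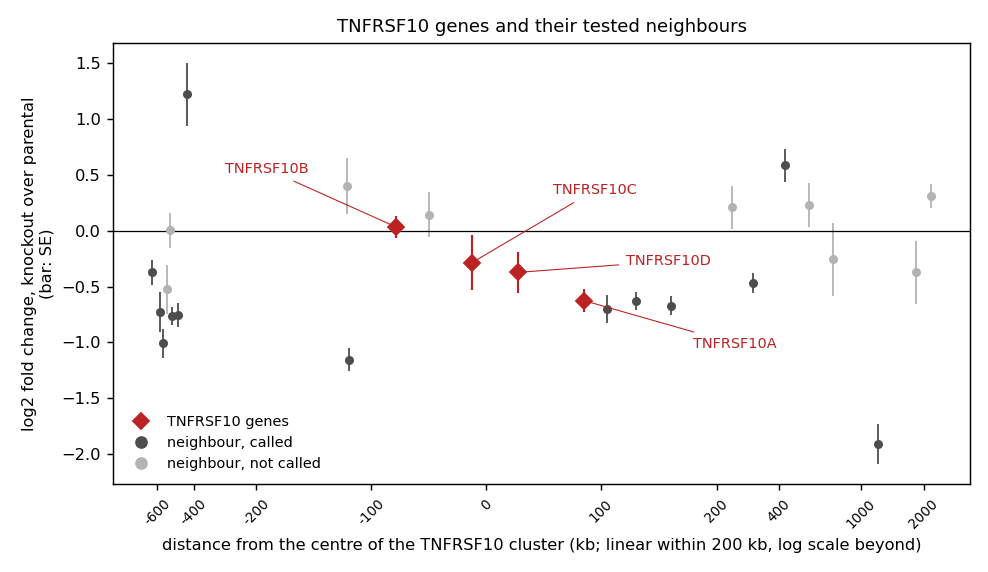
Log2 fold change of the TNFRSF10 genes (diamonds) and of the tested genes around and between them (circles, dark where called), with SE bars, against distance from the centre of the cluster in kb (linear within 200 kb, log scale beyond). TNFRSF10A at -0.63 lies at the level of CHMP7 and R3HCC1 beside it, and TNFRSF10B at 0.03 lies near 0.

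Some exons are shared with other annotated genes, and the strand setting of the counting is not given in the sources used here. TNFRSF10A shares 266 exon bases with AC100861.1, a transcript of the opposite strand that also fell (log2 fold change -0.70, SE 0.128, edgeR adjusted p = 0.00191). The share of exon length overlapped by other genes was 16.6% for TNFRSF10A, 39.3% for TNFRSF10C, 54.9% for FADD, 12.0% for CFLAR, 8.93% for FAS and 1.30% for TNFRSF10B, and 0% for TNFRSF10D, TNFSF10 and CASP8. Reads there can be lost as ambiguous or, without strand, given to the wrong gene. The 4 TNFRSF10 genes are paralogs, so reads that map to more than 1 of them can be missing from their counts, and 4.52% to 8.11% of all reads were set aside as not unique.

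FAS (ENSG00000026103, chromosome 10, 88990582 to 89015785, plus strand) had the lowest CPM per kb of the 3 death receptor members, TNFRSF10A, TNFRSF10B and FAS. It lay at 11.2, 8.64, 7.01 and 11.9 CPM in parental and at 10.7, 12.4, 14.0 and 14.1 CPM in knockout tumours. Knockout replicates 2 to 4 were above every parental tumour and knockout replicate 1 was inside the parental range. The log2 fold change of 0.40 (95% interval 0.02 to 0.78) did not pass the threshold over all genes (edgeR adjusted p = 0.117), nor did it in any of the 17 alternative analyses. None of the 3 tested genes on either side of FAS was called, with log2 fold changes from -0.73 to 0.41.

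The genes of the complex that forms under the receptors were compared next. FADD (ENSG00000168040, chromosome 11, 70203163 to 70207390, plus strand), the adaptor, lay at 44.4, 48.7, 42.6 and 47.7 CPM in parental and at 49.1, 51.8, 52.0 and 50.2 CPM in knockout tumours. The groups did not overlap, but the distance between them was small and the log2 fold change of 0.15 (95% interval -0.03 to 0.32) was not called (edgeR adjusted p = 0.198).

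CASP8 (ENSG00000064012, chromosome 2, 201233443 to 201287711, plus strand), the initiator caspase, lay just short of the threshold. It was at 68.9, 58.1, 68.8 and 59.99 CPM in parental and at 75.3, 80.6, 70.6 and 79.3 CPM in knockout tumours, so every knockout tumour was above every parental tumour. The log2 fold change was 0.26 (95% interval 0.06 to 0.45; edgeR adjusted p = 0.0511). It was a call with DESeq2 (adjusted p = 0.0374), with upper-quartile scaling (0.0335), with a stricter filter (0.0445) and without parental replicate 3 (0.0475), and with the replicate block its adjusted p was 0.105. Over all 17 alternative analyses the adjusted p ran from 0.0335 to 0.159.

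CFLAR (ENSG00000003402, chromosome 2, 201116104 to 201176687, plus strand), the gene of the inhibitor c-FLIP, rose. It lay at 90.1, 112, 113 and 90.3 CPM in parental and at 145, 136, 129 and 109.7 CPM in knockout tumours. Knockout replicates 1 to 3 were above every parental tumour and knockout replicate 4 was inside the parental range. From 101 ± 12.8 to 129.8 ± 15.01 CPM (SD, n = 4 each), it gained 0.36 on the log2 scale (edgeR adjusted p = 0.0370, SE 0.114). The call depends on which tumours are included. It held in all 9 alternative analyses on all tumours but in only 3 of the 8 fits without 1 tumour. It was lost without parental replicate 1 (edgeR adjusted p = 0.117) or 4 (0.0903) and without knockout replicate 1 (0.11), 2 (0.0923) or 3 (0.0749). Log2 fold changes ran from 0.30 to 0.43 over all 8 fits without a tumour.

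The balance between inhibitor and caspase transcripts did not separate the groups. The ratio of CFLAR to CASP8 CPM was 1.31, 1.93, 1.63 and 1.51 in parental and 1.92, 1.69, 1.82 and 1.38 in knockout tumours. Counts per gene do not tell the long from the short c-FLIP transcript, the soluble from the membrane form of FAS, or a full-length from a shortened caspase-8.

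CFLAR, CASP10 and CASP8 lie in that order on chromosome 2, and all encode proteins with death effector domains, the fold through which FADD recruits them. CASP10, the second initiator caspase of the receptor complex, lay at 7.25, 11.5, 12.2 and 8.46 CPM in parental and at 4.81, 5.12, 5.09 and 5.28 CPM in knockout tumours. It fell while the genes on either side of it had positive log2 fold changes (CASP10 -0.96, SE 0.176, edgeR adjusted p = 0.00199), and its groups did not overlap. The 2 highest parental values again belong to replicates 2 and 3, those with the highest leukocyte marker sums. Among knockout tumours the highest CASP10 value belongs to replicate 4, which had the lowest leukocyte marker sum (16.8 CPM). The part of leukocyte RNA in the CASP10 values was not tested. None of the 3 tested genes beyond CFLAR or beyond CASP8 was called, with log2 fold changes from -0.22 to 0.20.

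A wider list of 42 genes of the extrinsic pathway was then examined, of which 39 were tested. Of these 7 were higher, 7 lower and 25 not called. The called share was 35.9%, against 27.0% of all genes, and the median log2 fold change was -0.08. FASLG and LTA were too low for the test and NOL3 is not analysed here.

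The rise in TNFRSF11B was the largest among the tested genes of the list. This gene encodes osteoprotegerin, a secreted receptor without a membrane anchor that binds RANK ligand and can also bind TRAIL. It had 5, 6, 6 and 15 counts in the parental and 55, 36, 59 and 57 counts in the knockout libraries, or 0.259 to 0.638 and 1.76 to 2.75 CPM. All knockout tumours were above all parental ones (log2 fold change 2.70, SE 0.326, edgeR adjusted p = 0.000118), though the level stayed low.

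Genes downstream of the receptors moved in both directions. BID, the protein that caspase-8 cleaves to engage mitochondria, lay at 48.9, 51.3, 56.9 and 56.7 CPM in parental and at 30.9, 33.1, 33.3 and 30.2 CPM in knockout tumours, and fell (log2 fold change -0.75, SE 0.0860, edgeR adjusted p = 8.71e-05). MLKL, the membrane-breaking effector of necroptosis that acts when caspase-8 is inactive, lay at 35.6, 29.4, 23.4 and 29.1 CPM in parental and at 77.7, 80.0, 66.7 and 60.1 CPM in knockout tumours, and rose (1.28, SE 0.135, adjusted p = 4.74e-05). The groups were apart for both genes. The kinase gene RIPK1 (0.05, 95% interval -0.13 to 0.23, adjusted p = 0.706) was not called.

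PTPN13, a phosphatase known to bind the tail of FAS, fell from 19.7 to 46.3 CPM over the parental tumours to 7.52 to 9.80 CPM over the knockout tumours (log2 fold change -1.75, SE 0.238, edgeR adjusted p = 0.000270). TNFRSF21 (DR6), a receptor with a death domain outside the TRAIL group, fell from 164 ± 19.99 to 81.2 ± 7.93 CPM (SD, n = 4 each; -1.01, adjusted p = 4.69e-05). TNFSF15, a ligand of the death receptor TNFRSF25, rose from 7.48 to 12.6 CPM over the parental tumours to 24.8 to 46.7 CPM over the knockout tumours (1.77, adjusted p = 0.000160). RBCK1, a subunit of the linear ubiquitin ligase that acts at the receptor complex, rose from 154 ± 7.64 to 227 ± 22.4 CPM (0.56, adjusted p = 0.000867).

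The other 6 called genes, named after their values were seen, were BIRC3 (1.04), TRAF2 (0.41) and BIRC2 (0.37), which rose, and DEDD2 (-0.53), GALNT14 (-0.34) and DEDD (-0.24), which fell. BIRC2 and BIRC3 encode the ubiquitin ligases cIAP1 and cIAP2, which TRAF2 brings to tumour necrosis factor receptors, and GALNT14 encodes an enzyme that adds O-linked sugars. DEDD and DEDD2 encode further death effector domain proteins.

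**Figure D5:**
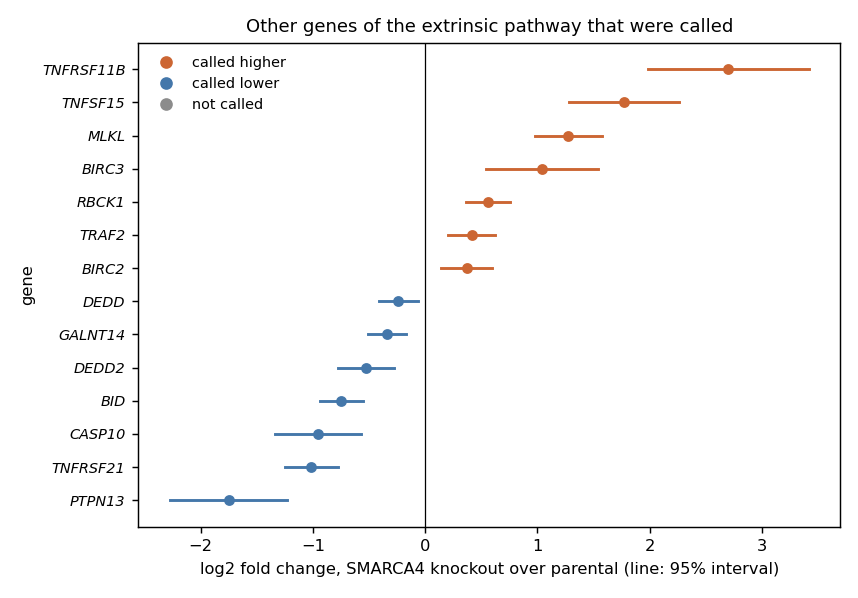
Log2 fold change, SMARCA4 knockout over parental, of the 14 called genes of the wider pathway list (horizontal axis; points are edgeR estimates and lines 95% intervals). The 7 genes called higher run from BIRC2 at 0.37 to TNFRSF11B at 2.70, and the 7 called lower from DEDD at -0.24 to PTPN13 at -1.75.

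Genes whose log2(CPM + 1) over the 8 tumours followed a member most closely were listed among the 13052 genes whose mean log2 CPM reached 1. For TNFRSF10A they included AQP3 (Pearson r = 0.989) and MTF1 (0.988), both called lower in knockout tumours. For TNFRSF10B they were PPP1R15A (0.965), TM9SF4 (0.965) and FOSL2 (0.958), none of them called. For TNFRSF10D they were TMEM263 (0.990), EIF2A (0.981) and ARFIP1 (0.965), and for CFLAR PPP1R26 (0.985), PIK3CD (0.982) and CDIP1 (0.981). The 8 points share their libraries and, for TNFRSF10A and CFLAR, the difference between the groups, so these values are a description.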

How the data were processed

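RNA sequencing counts from 8 xenograft tumours, 4 parental and 4 SMARCA4 knockout, were used. The authors deposited raw read counts per gene symbol, 1 file per tumour with nothing pooled. TopHat2 2.1.1, HTSeq 0.11.0 and the build hg38 are named, with no role, per the submitters' processing notes. The annotation, the strand setting and any removal of mouse reads are not given in the sources used here, so host reads that resemble human transcripts may be counted. The 5 summary lines were left out, and 79.2% to 85.2% of reads were assigned to a gene.

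Counts were fitted with edgeR 4.0.16 in R 4.3.3: filterByExpr (minimum count 10, minimum total 15), TMM scaling, quasi-likelihood F-test of knockout against parental without covariate, and Benjamini-Hochberg adjustment over 16219 genes. Genes with an adjusted p under 0.05 are called. The script was tested on simulated data. Intervals are 95% intervals of the fitted log2 fold change. Alternatives used DESeq2 1.42.0, limma 3.58.1 (voom), other scalings and filters, the replicate number as a block, and each tumour left out in turn. Positions and lengths were taken by symbol from GENCODE 29 (GRCh38) and promoters from RefSeq (GRCh38.p14); protein sequences were not used here. Named genes are the 9 members, SMARCA4, 8 called pathway genes with the smallest p plus FASLG, CASP10, BID and RIPK1, 3 called genes of each other list, the 3 nearest tested neighbours on each side of the TNFRSF10 genes, and the 3 closest patterns per member. Some results that this rule covers are not reported here. The members and lists were chosen with earlier results of these data known.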

Additional observations from a re-analysis of the deposited data

How the results depend on the processing

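Over 17 alternative analyses, 9 on all tumours and 8 without 1 tumour each, TNFRSF10A was called lower throughout (adjusted p at most 0.00621) and TNFSF10, TNFRSF10B, TNFRSF10C, FAS and FADD were never called. The number of members called higher was 2 with upper-quartile scaling, 2 with the stricter filter and 2 with DESeq2, in each case by the addition of CASP8, and lay between 0 and 2 over the fits without a tumour. The number called lower lay between 1 and 2 over those fits, by the addition of TNFRSF10D without knockout replicate 2. The estimate for TNFRSF10B changed sign, uncalled, without parental replicate 4 (-0.02) and without knockout replicate 1 (-0.01) or 2 (-0.0024); the cause was not tested. Genes called over all genes numbered 3501 to 4902 against 4385, and the wider list gave 6 to 8 called lower and 6 to 7 higher. With the replicate block, 3871 genes were called, with 1 member lower and 1 higher as before. The replicate numbers share only a label: deviations of same-numbered tumours correlated at -0.25 to 0.09 across genes, and 0 of 4 parental tumours correlated best with their own number. Low counts limit the precision for TNFRSF10C and TNFRSF11B, and FASLG and LTA were too low to test.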

Other observations

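A further list held 20 receptors of the tumour necrosis factor receptor superfamily that are neither members nor in the wider pathway list. Of these 9 were tested and 3 were called, all higher. That made 33.3%, against 27.0% of all genes called and 13.0% called higher. EDAR, the ectodysplasin receptor gene, lay at 1.09 to 1.86 CPM in parental and 13.5 to 18.3 CPM in knockout tumours and rose by 3.33 on the log2 scale (edgeR adjusted p = 7.14e-07, SE 0.184). TNFRSF18, better known as GITR, rose from 0.391 to 0.932 CPM over the parental tumours to 2.096 to 3.36 CPM over the knockout tumours (1.95, adjusted p = 0.000419). TNFRSF19 rose by a log2 fold change of 0.66 (adjusted p = 0.0167), with groups that overlapped. LTBR is not analysed here.

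Of the markers of other host cells, 1 of 6 tested fibroblast genes (LUM) was called higher and 1 of 2 tested endothelial genes (VWF) lower. Over all genes tested, 13.0% were called higher and 14.1% lower. Fibroblast markers summed to 182 to 612 CPM in parental and 346 to 608 CPM in knockout tumours, endothelial markers to 7.66 to 18.4 and 9.34 to 15.7 CPM, and muscle, adipose and erythroid markers to 0.777 to 23.4 and 0.747 to 14.1 CPM; ADIPOQ and HBA2 were at 0 in every library. COL1A1 alone made up 174 to 572 CPM of the fibroblast sum in parental and 317 to 565 CPM in knockout tumours. PECAM1 carried most of the endothelial sum in every tumour, and CDH5 was at 0 in every knockout library. The part of any of these cells in the values of the death receptor genes was not tested. A rule on the gap to the nearest tumour as a share of the group's range (Dixon) was applied to 20 sets of 4 values. By it no tumour stood apart from the other 3 of its group for any of the 9 members or SMARCA4. With 4 values only a very large gap meets this rule. It can miss a tumour that weighs on a result, as knockout replicates 2 and 4 did for TNFRSF10D.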
